A study of Mus musculus with 2 samples.

Results

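The genes described here are 10 genes of bone morphogenetic protein (BMP) and activin signalling, chosen by symbol: Bmp2, Bmp4, Bmp7, Inhbb, Bmpr1a, Bmpr2, Acvr1, Fst, Smad6 and Id1. All 10 were among the 19070 genes targeted by the assay's probes. BMPs and activins are secreted dimers of the TGF-beta superfamily that bring together type I and type II serine/threonine kinase receptors. The activated type I receptor phosphorylates SMAD proteins, which enter the nucleus and switch on targets such as the Id genes, while secreted antagonists hold the ligands back outside the cell. In the mouse uterus these signals are known for their part in implantation and in decidualization, the change of stromal cells into the maternal side of the implantation site.

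Single-cell RNA was measured in mouse endometrium on day 3 of pregnancy (9 AM, per the sample titles), in 1 library of Erbb3 f/f tissue, the control, and 1 library of Erbb3 d/d tissue, described by the submitters as deleted for Erbb3 in the stroma. Erbb3 is a receptor of the ErbB family, and the study asked how it shapes uterine gland formation. The Cre driver, the age of the mice and how many mice went into each library are not given in the sources used here. With 1 library per genotype there was no test, every interval covers counting error only, and a difference between the libraries is not separated from a difference between mice or preparations.

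Cells were assigned by marker genes: a barcode took the type with the most marker molecules, provided it had at least 2 of them and they made up at least 0.75 of all marker molecules in that barcode. After removal of barcodes above 10% mitochondrial RNA, 5503 f/f and 1830 d/d barcodes with medians of 809 and 764.5 UMIs (counted RNA molecules) remained. Unless called deposited, "all barcodes" below means these used ones, gated or not, and shares of all UMIs are taken over them. The removed barcodes held 19.1% and 40.3% of the UMIs of their libraries. The gate held 1555 and 534 epithelial and 1324 and 322 stromal barcodes, and left 44.5% and 50.7% ungated. No whole barcode was shared, although 158 shared their first 16 bases. Grouping both libraries into 13 Leiden clusters, named from the same markers, served as a second way to choose cells. It gave mesothelial-like and endothelial-like clusters, types that the gate rarely held (9 and 1 mesothelial and 100 and 25 endothelial barcodes). Mesothelial-like and smooth-muscle-like clusters lay beside the cell types of an endometrium. The mesothelial-like cluster was mixed, with 1735 f/f and 790 d/d UMIs of stromal gate markers. It held 747 and 233 UMIs of mesothelial and 316 and 195 of epithelial gate markers. Its levels below are those of this mixture.

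The gated stroma was not made up alike in the libraries. Of the gated stromal barcodes, 73.7% in f/f and 54.0% in d/d lay in the stromal-like cluster, 6.42% and 17.4% lay in the mesothelial-like cluster, and keratins not used in the gate stood at 277 and 535 CPM (UMIs of the gene scaled to a common total of all UMIs in the class), against 1821 and 2270 CPM in the gated epithelium. The genes Wt1, Bnc1 and Rspo1, listed as mesothelial and not used in the gate, together stood at 1046 and 925 CPM in gated stroma. The stromal genes Fbn1, Col5a2, Serpinf1 and Igf1, also not used in the gate, together stood at 716 and 664 CPM there. These sums cover different genes, so they do not rank the cell types. The sum of the mesothelial list was not higher in d/d, unlike the share of barcodes in the mesothelial-like cluster. The main stromal values are therefore also given for the stromal-like cluster of 1163 f/f and 209 d/d barcodes. The epithelium differed in make-up too: the clusters led by Slc5a11 and by Arvcf had 781 and 613 f/f barcodes against 22 and 7 d/d ones, and the cycling cluster led by Ankle1 had 502 and 659. Each epithelial ratio therefore compares different mixtures of clusters, and the part of make-up in the differences was not tested beyond the values given. Erbb3 itself was at 10.4 and 11.1 CPM in gated stroma (13 and 3 UMIs), too few to check the genotype, and at 83.1 and 46.8 CPM in gated epithelium (134 and 24 UMIs).

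Among the ligands, Bmp7 was the one that both libraries measured well, and it was a stromal transcript. In gated stroma 406 f/f and 119 d/d UMIs of Bmp7 were counted, which is 325 CPM (294 to 358, 95% Poisson interval) and 439 CPM (363 to 525). Gated epithelium held 44 and 13 UMIs, or 27.3 and 25.3 CPM. The level in stroma was thus 11.9-fold (8.72 to 16.7) that in epithelium in f/f and 17.3-fold (9.75 to 33.5) in d/d. Stromal barcodes carried 59.4% (f/f) and 55.6% (d/d) of all Bmp7 UMIs, while holding 22.6% and 15.8% of all UMIs. The share of stromal barcodes with a Bmp7 UMI was 22.3% (f/f) and 24.8% (d/d) at median depths of 743 and 690 UMIs, and 14.3% and 16.8% once each barcode was thinned to 500 UMIs, which left out 9 f/f barcodes. In gated endothelium, taken as a background, 1 of 100 f/f and 0 of 25 d/d barcodes had one, at median depths of 665.5 and 791 UMIs. The endothelial-like cluster was higher, at 68.4 CPM in f/f (19 UMIs) and 17.4 CPM in d/d (1 UMI). The mesothelial-like cluster was at 89.5 CPM (33 UMIs) and 87.1 CPM (16 UMIs).

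Between the libraries, Bmp7 in gated stroma was higher in d/d by 0.43 on the log2 scale (0.13 to 0.73). In the stromal-like cluster it stood at 372 CPM in f/f and 645 CPM in d/d, from 356 and 99 UMIs, a log2 ratio of 0.79 (0.46 to 1.12). Neither value reached the size rule used throughout, a difference of at least 2-fold, that is 1 on the log2 scale, in a gene with at least 20 UMIs over both libraries in the class. Among stromal barcodes with no UMI of Col6a4 or Adam12 the ratio was -0.19 (-1.06 to 0.58), from 142 and 15 UMIs, an interval that includes both 0 and the value of the gate. Over all used barcodes Bmp7 stood at 124 and 125 CPM, which does not count 57 f/f and 49 d/d UMIs in the barcodes left out. Such a level over mixed cells cannot tell a change in the share of stromal cells from a change in RNA per cell.

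Bmp7 was also spread unevenly within the epithelium. The epithelial-like cluster led by Slc2a3, Syn2 and Gulo held 58 Bmp7 UMIs for f/f, or 92.5 CPM (70.3 to 120), and 6 for d/d, or 157 CPM (57.6 to 341). The clusters led by Slc5a11 and by Arvcf held 4 UMIs each in f/f, or 6.79 and 6.0 CPM, and too few d/d barcodes for a comparison (22 and 7). The cluster led by Clca3b, with 207 f/f and 271 d/d barcodes, was at 5.42 and 9.83 CPM, and the cluster of cycling cells led by Ankle1 at 40.5 and 44.2 CPM. For every 100 UMIs of stromal gate markers there were 14.2 Bmp7 UMIs in the Syn2 cluster in f/f, against 4.61 in the stromal-like cluster and 1.70 in the Slc5a11 cluster. In the cycling cluster there were 7.02 in f/f. In d/d the ratio was 30 in the Syn2 cluster, from 6 Bmp7 UMIs, 6.98 in the stromal-like cluster and 6.87 in the cycling cluster. Which cells the Bmp7 UMIs of these epithelial-like clusters came from was not tested. The myeloid-like cluster, at 197 and 193 CPM, had 4.46 and 4.16 Bmp7 UMIs per 100 stromal marker UMIs, close to the stromal-like cluster in f/f, while gated myeloid barcodes had 1 Bmp7 UMI in 45 f/f and 0 in 17 d/d barcodes.

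Bmp2 and Bmp4, the ligands best known from decidualization and from early embryonic patterning, and Inhbb, which encodes the beta B subunit of activin B and inhibin B, were sparse. Over all barcodes Bmp2 had 21 f/f and 10 d/d UMIs, Bmp4 33 and 9, and Inhbb 10 and 9. Gated stroma had 13 and 4 Bmp2 UMIs (10.4 and 14.7 CPM), gated epithelium 1 and 0, ungated barcodes 7 and 6, and the mesothelial-like cluster 6 and 2 (16.3 and 10.9 CPM). Among the epithelial-like, stromal-like, endothelial-like and mesothelial-like clusters, Bmp4 was highest in the last. It was there at 46.1 CPM in f/f (17 UMIs) and 32.7 CPM in d/d (6 UMIs). The 9 f/f and 1 d/d barcodes gated as mesothelial had 1 and 0 Bmp4 UMIs. The stromal-like cluster had 2 and 1 Bmp4 UMIs and the epithelial-like clusters 6 and 2, or 2.16 and 2.05 CPM, so the mesothelial-like level was 21.3-fold (8.02 to 66.0) and 15.9-fold (2.85 to 162) the epithelial one. Between libraries Bmp4 in the mesothelial-like cluster differed by -0.50 on the log2 scale (-2.13 to 0.91). Inhbb was at 1.81 CPM in f/f and 5.25 CPM in d/d over all barcodes, a log2 ratio of 1.54 (0.06 to 2.99), but its 19 UMIs missed the minimum of 20.

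**Figure D1:**
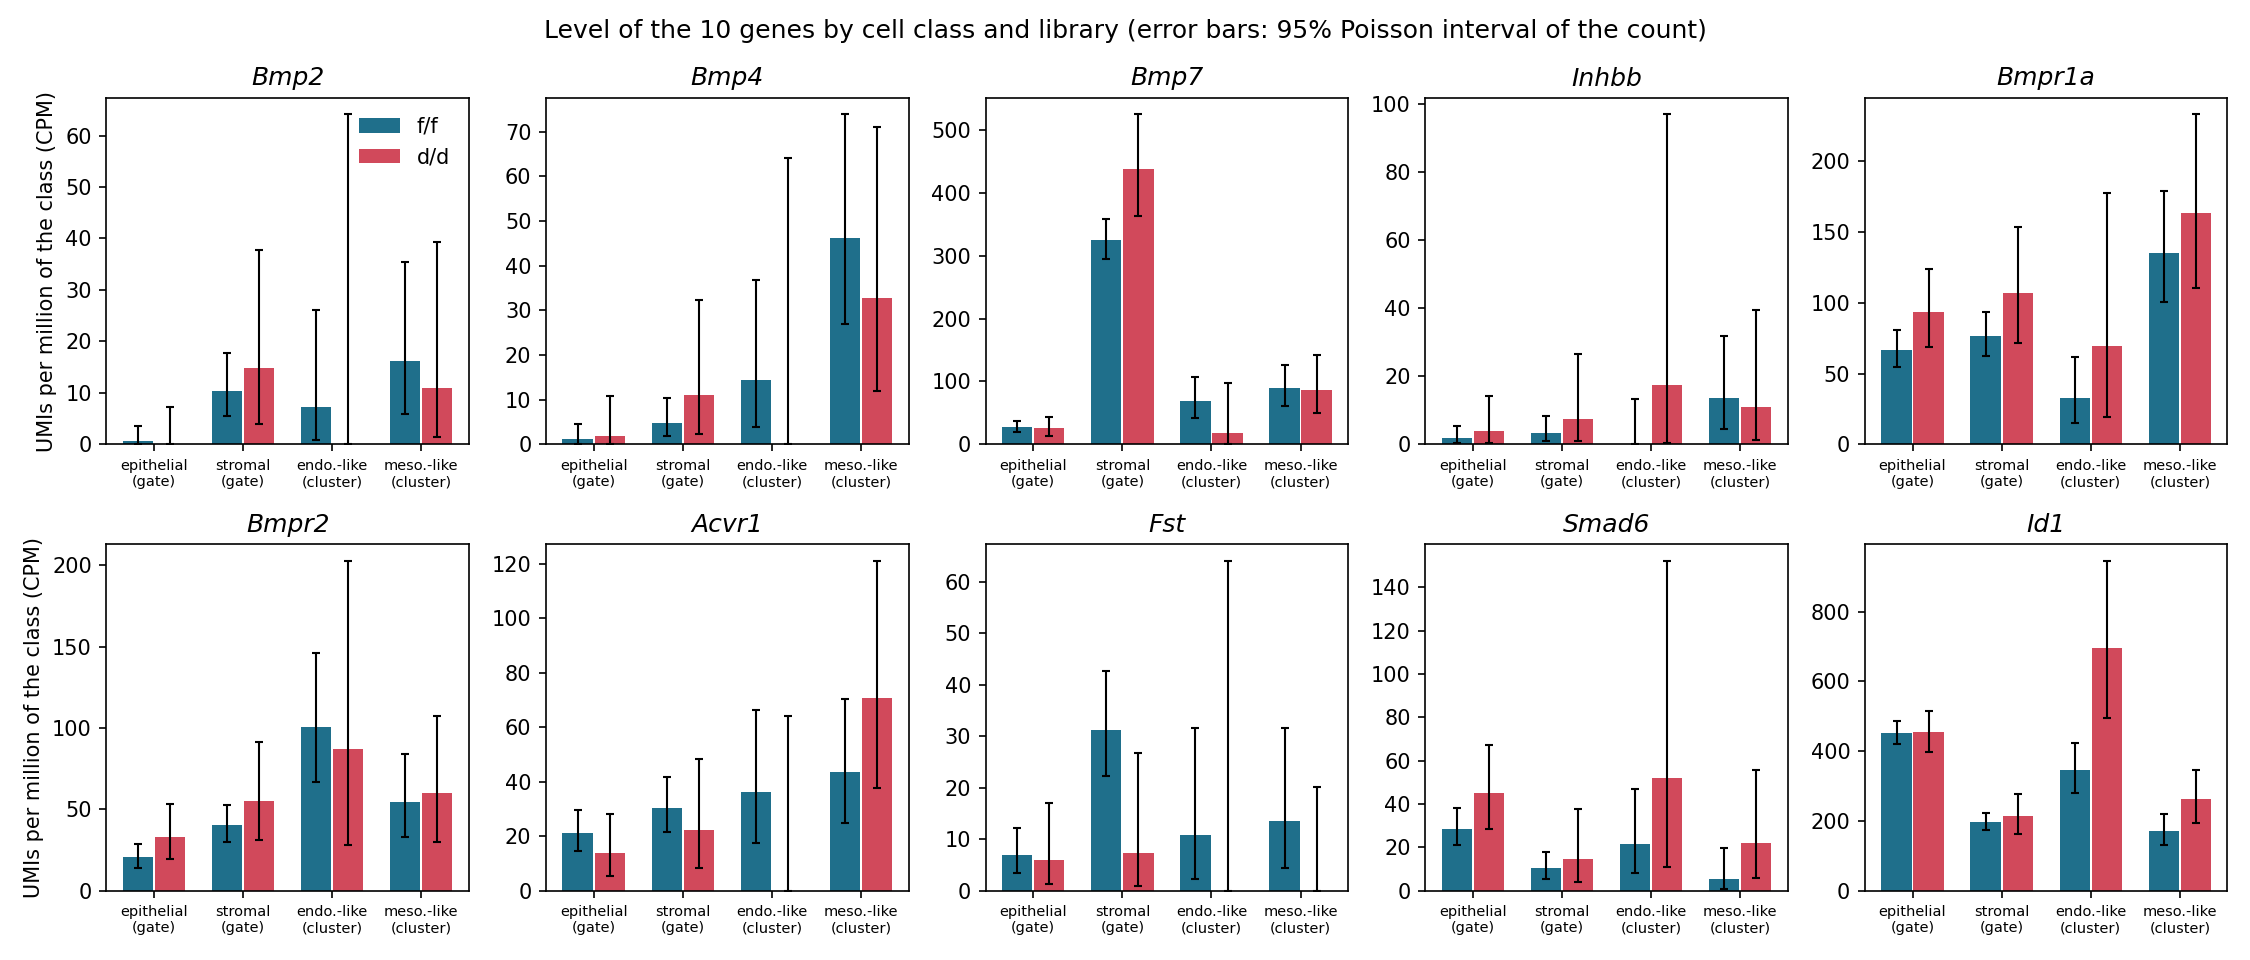
Level of each of the 10 genes in CPM of the class (vertical axis, a separate scale for each gene) in gated epithelium, gated stroma and the endothelial-like and mesothelial-like clusters, for the f/f library (blue) and the d/d library (red), with 95% Poisson intervals as error bars and no replicates. Bmp7 was highest in stroma at 325 and 439 CPM, Bmp4 in the mesothelial-like cluster at 46.1 and 32.7 CPM, and Id1 was higher in epithelium (453 and 454 CPM) than in stroma (196 and 214 CPM).

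The receptors were broader. Bmpr1a encodes a type I BMP receptor (ALK3), Bmpr2 a type II BMP receptor, and Acvr1 a type I receptor (ALK2) that serves BMPs. Bmpr1a had 108 f/f and 48 d/d UMIs in gated epithelium, 66.9 CPM (54.9 to 80.8) and 93.5 CPM (69.0 to 124), and 96 and 29 UMIs in gated stroma, 76.9 CPM (62.3 to 93.9) and 107 CPM (71.6 to 154). The stromal and epithelial levels overlapped within each library. The mesothelial-like cluster was higher, at 136 and 163 CPM, 1.87-fold (1.34 to 2.56) the epithelial-like level in f/f and 1.71-fold (1.10 to 2.61) in d/d. The endothelial-like cluster was lower in f/f, at 32.4 CPM from 9 UMIs.

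Bmpr1a was higher in d/d in epithelium, stroma and the mesothelial-like cluster. The log2 ratio was 0.48 in gated epithelium (-0.04 to 0.99), 0.48 in gated stroma (-0.18 to 1.09), 0.60 in the stromal-like cluster (-0.23 to 1.36), 0.27 in the mesothelial-like cluster (-0.44 to 0.95) and 0.37 over all barcodes (0.11 to 0.63), where 418 and 168 UMIs were counted. Within the classes these intervals include 0, and none of the ratios reached 2-fold. In f/f Bmpr2 was highest in the endothelial-like cluster, at 101 CPM (28 UMIs), and in d/d it was at 86.9 CPM there (5 UMIs). The epithelial-like clusters were at 32.8 and 31.8 CPM. The f/f endothelial level was 3.07-fold (1.94 to 4.74) the epithelial one, and in d/d the 2.74-fold difference had an interval from 0.83 to 7.10. It was 2.76-fold (1.62 to 4.67) the stromal-like level in f/f and 1.03-fold (0.29 to 3.07) in d/d. In gated stroma Bmpr2 was at 40.0 and 55.3 CPM, a log2 ratio of 0.47 (-0.47 to 1.32), and in the stromal-like cluster at 36.6 and 84.7 CPM from 35 and 13 UMIs, a ratio of 1.21 (0.17 to 2.17). In gated epithelium Bmpr2 had 33 and 17 UMIs, or 20.5 and 33.1 CPM, a ratio of 0.70 (-0.24 to 1.58). That ratio was -0.05 over the epithelial-like clusters and 1.15 (0.16 to 2.10) with a gate minimum of 3 marker UMIs, so it moved with the choice of barcodes. Acvr1 had 34 and 7 UMIs in gated epithelium (21.1 and 13.6 CPM) and 38 and 6 in gated stroma (30.4 and 22.1 CPM), with ratios of -0.63 (-2.05 to 0.57) and -0.46 (-1.99 to 0.79), and 27 and 4 in the stromal-like cluster, a ratio of -0.11 (-2.09 to 1.41). Among the epithelial-like, stromal-like, endothelial-like and mesothelial-like clusters, Acvr1 was highest in the last, at 43.4 CPM (16 UMIs) and 70.8 CPM (13 UMIs). That was 2.36-fold (1.26 to 4.21) and 5.32-fold (2.27 to 12.4) the epithelial-like level. Gated endothelium had 5 Acvr1 UMIs in f/f, or 61.2 CPM, and 0 in d/d.

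Fst encodes follistatin, a secreted protein that binds activins and, less tightly, BMPs. In f/f it was higher in gated stroma, with 39 of its 81 UMIs or 31.2 CPM (22.2 to 42.7), than in gated epithelium, with 11 UMIs or 6.82 CPM, and 31 UMIs were ungated. In d/d gated stroma 2 UMIs were counted, or 7.37 CPM (0.89 to 26.6), and the log2 ratio was -2.08 (-5.18 to -0.13). Fst was the only member past 2-fold in gated stroma, where 6 of the 10 members had 20 UMIs, and 12.2% of the 9720 genes counted there were past 2-fold. No member of the 6 counted in gated epithelium passed, against 15.2% of 9700 genes. Over all barcodes Fst again was the only one, of 9 counted, with 81 and 11 UMIs and a ratio of -1.19 (-2.25 to -0.28), against 9.8% of 12316 genes. Over the members that were counted, the median ratio was 0.24 in epithelium, 0.28 in stroma and 0.01 over all barcodes, beside -0.02, -0.06 and -0.03 over all counted genes. In the stromal-like cluster Fst had 32 and 2 UMIs, or 33.4 and 13.03 CPM, and its interval included 0 (-1.36, from -4.47 to 0.61). The d/d side rests on 2 UMIs in both selections.

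**Figure D2:**
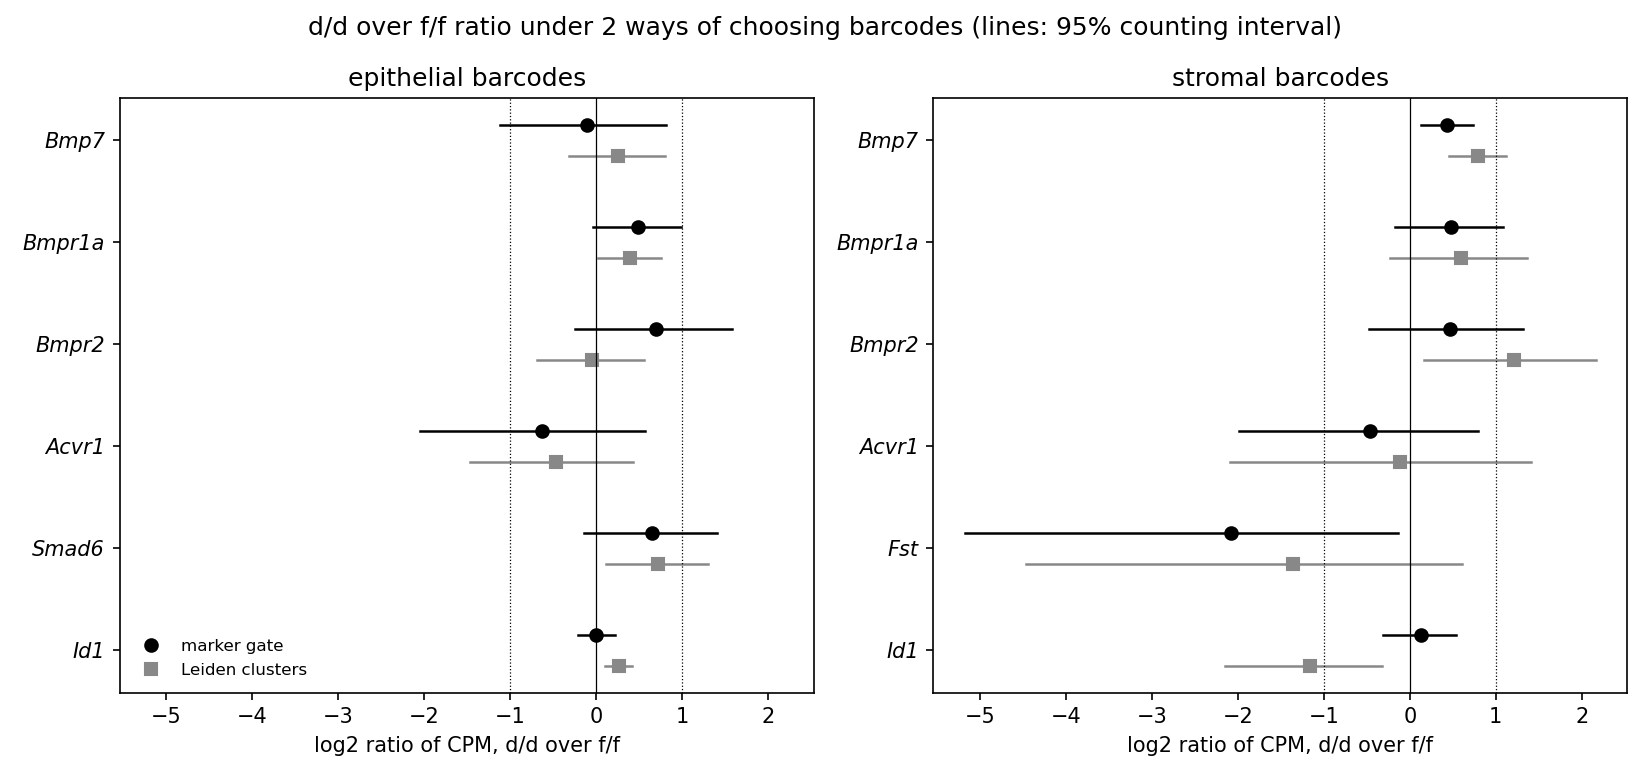
Log2 ratio of CPM, d/d over f/f (horizontal axis), of the members with at least 20 UMIs in the gated class (vertical axis), for epithelial barcodes (left) and stromal barcodes (right), chosen by the marker gate (black circles) or by Leiden clusters (grey squares), with 95% counting intervals as lines and 2-fold as dotted lines. In stroma Bmp7 lay above 0 under both choices (0.43 and 0.79), while Id1 lay at 0.12 under the gate and at -1.17 in the cluster.

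Smad6 encodes an inhibitory SMAD that is itself switched on by BMP signals and damps them. It was higher in epithelium than in stroma, with 46 and 23 UMIs against 13 and 4, or 28.5 and 44.8 CPM against 10.4 and 14.7 CPM, so the stromal level was 0.37-fold (0.18 to 0.69) and 0.33-fold (0.08 to 0.96) the epithelial one. Over all barcodes Smad6 had 114 f/f and 60 d/d UMIs, or 20.7 and 35.0 CPM, a log2 ratio of 0.76 (0.29 to 1.23). In gated epithelium the ratio was 0.65 (-0.14 to 1.40), in the epithelial-like clusters 0.72 (0.12 to 1.30), in ungated barcodes 0.72 (0.04 to 1.37), and in the left-out barcodes of high mitochondrial share 0.51 (-0.42 to 1.46). In gated epithelium the ratio was 0.06 (-1.02 to 1.03) with a gate minimum of 3 marker UMIs and 1.32 (0.14 to 2.64), past 2-fold, without barcodes carrying Lrp2 or Slc5a11, from 9 and 21 UMIs. All these estimates lay above 0, and their size moved with the choice of barcodes. With both libraries pooled, Smad6 was at 54.1 CPM in the Clca3b cluster (207 f/f and 271 d/d barcodes). It was at 69.3 CPM in the epithelial-like cluster led by Cbs (16 and 62 barcodes). The other epithelial-like clusters lay between 21.05 and 27.45 CPM. The part of this mixture in the Smad6 ratios was not tested. The stromal-like cluster had 12 and 3 Smad6 UMIs.

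Of the 9 members counted over all used barcodes, Bmpr1a, Smad6 and Id1 had a ratio whose whole interval lay above 0. These ratios do not count the barcodes left out for mitochondrial share. Those held 58 f/f and 60 d/d UMIs of Bmpr1a, 19 and 24 of Smad6, and 326 and 338 of Id1. For Bmpr1a and Smad6 the 250 bases before the start site are shown, to let a reader see the letters that SMAD proteins are known to bind. They were read 5′ to 3′ on the gene's strand from RefSeq's promoters on GRCm38.p6, which held 6 of the 10 members, at chr14:34502547-34502796 (minus strand) and chr9:64022060-64022309 (minus strand). Capitals mark GGCGCC, the GC-rich SMAD site, and CAGAC, the SMAD-binding element, both searched on both strands.
Bmpr1a: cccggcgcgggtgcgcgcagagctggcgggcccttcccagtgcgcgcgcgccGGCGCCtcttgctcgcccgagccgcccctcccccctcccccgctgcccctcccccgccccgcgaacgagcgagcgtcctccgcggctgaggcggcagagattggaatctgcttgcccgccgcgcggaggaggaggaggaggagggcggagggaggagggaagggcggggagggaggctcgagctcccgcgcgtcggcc
Smad6: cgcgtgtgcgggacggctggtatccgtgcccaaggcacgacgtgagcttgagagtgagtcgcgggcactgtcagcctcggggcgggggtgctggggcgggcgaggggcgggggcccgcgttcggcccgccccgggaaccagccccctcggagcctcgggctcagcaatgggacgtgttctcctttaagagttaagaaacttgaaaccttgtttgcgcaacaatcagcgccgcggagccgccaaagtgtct
The Bmpr1a stretch holds 1 GGCGCC and no CAGAC, and the Smad6 stretch holds neither set of letters. Of 32851 promoter stretches of the same length, 9.59% held GGCGCC and 42.2% held CAGAC. Bmpr2 also held 1 GGCGCC, and Bmp4, Inhbb and Acvr1 held neither. These are matches of letters in a window and describe no binding.

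Id1, a helix-loop-helix protein without a DNA-binding region and a direct target of BMP-activated SMADs, gave the largest counts of the 10. In gated epithelium 731 f/f and 233 d/d UMIs were counted, or 453 CPM (421 to 487) and 454 CPM (398 to 516), a log2 ratio of 0.00 (-0.22 to 0.22). The gated epithelial levels thus differed by less than counting error. All epithelial-like clusters together gave 417 and 501 CPM, from 1158 and 489 UMIs, a ratio of 0.26 (0.11 to 0.42). That pool mixed its clusters in different shares in the libraries. Its cycling and Clca3b clusters, with 659 and 271 d/d barcodes, did not lie higher in d/d, as given below. Its Syn2 and Slc5a11 clusters, with 49 and 22 d/d barcodes, had ratios above 0 whose intervals included 0. The part of make-up in the ratio of the pool was not tested. Gated stroma held 245 and 58 UMIs, or 196 CPM (172 to 222) and 214 CPM (162 to 276), which is 0.43-fold (0.37 to 0.50) and 0.47-fold (0.35 to 0.63) the epithelial level. Barcodes with an Id1 UMI made up 28.7% and 28.1% of the epithelial and 12.8% and 13.4% of the stromal barcodes, and 17.1%, 17.4%, 7.60% and 8.07% after thinning to 500 UMIs. Median depths in gated epithelium were 884 and 872.5 UMIs, and thinning left out 2 f/f epithelial barcodes. In gated myeloid barcodes, at medians of 676 and 632 UMIs, it was seen in 2 of 45 and 1 of 17.

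The libraries differed in Id1 according to the cell class. In the endothelial-like cluster Id1 was at 346 CPM in f/f (96 UMIs) and 695 CPM in d/d (40 UMIs), a log2 ratio of 1.01 (0.44 to 1.55), and in the gated endothelium at 441 and 832 CPM, from 36 and 19 UMIs and a ratio of 0.92 (0.03 to 1.76). In the mesothelial-like cluster it was at 171 and 261 CPM, a ratio of 0.61 (0.04 to 1.18). In the stromal-like cluster it was lower in d/d, at 175 CPM (168 UMIs) and 78.2 CPM (12 UMIs), a ratio of -1.17 (-2.15 to -0.32). Among epithelial-like clusters it was lower in the Clca3b cluster, at 710 and 531 CPM (-0.42, from -0.80 to -0.04), and not separated in the cycling cluster, at 530 and 487 CPM (-0.12, from -0.34 to 0.10). It was at 219 and 366 CPM in the Syn2 cluster (0.74, from -0.17 to 1.54) and at 442 and 831 CPM in the Slc5a11 cluster (0.91, from -0.02 to 1.71), where d/d had 14 and 13 UMIs. Over all barcodes the ratio was 0.31 (0.18 to 0.44). The differences between these ratios were not tested.

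The stromal value of Id1 turned on which barcodes were taken. The gate gave 0.12 (-0.31 to 0.54). Gated barcodes that also lay in the stromal-like cluster held 147 of the 245 f/f UMIs and 7 of the 58 d/d UMIs and gave -1.70 (-3.04 to -0.62). Gated barcodes with no UMI of Col6a4, Adam12, Pth1r or Scube1, 339 in f/f and 67 in d/d, gave 1.53 (0.71 to 2.31), from 41 and 22 UMIs. In those same barcodes Bmpr1a was at 46.6 and 187 CPM, from 12 and 9 UMIs, a ratio of 2.01 (0.58 to 3.38). In barcodes with Col6a4 or Adam12 but neither Pth1r nor Scube1, 252 and 100, the Id1 ratio was -0.33 (-1.30 to 0.56) and the Bmp7 ratio 0.12 (-0.61 to 0.81).

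**Figure D3:**
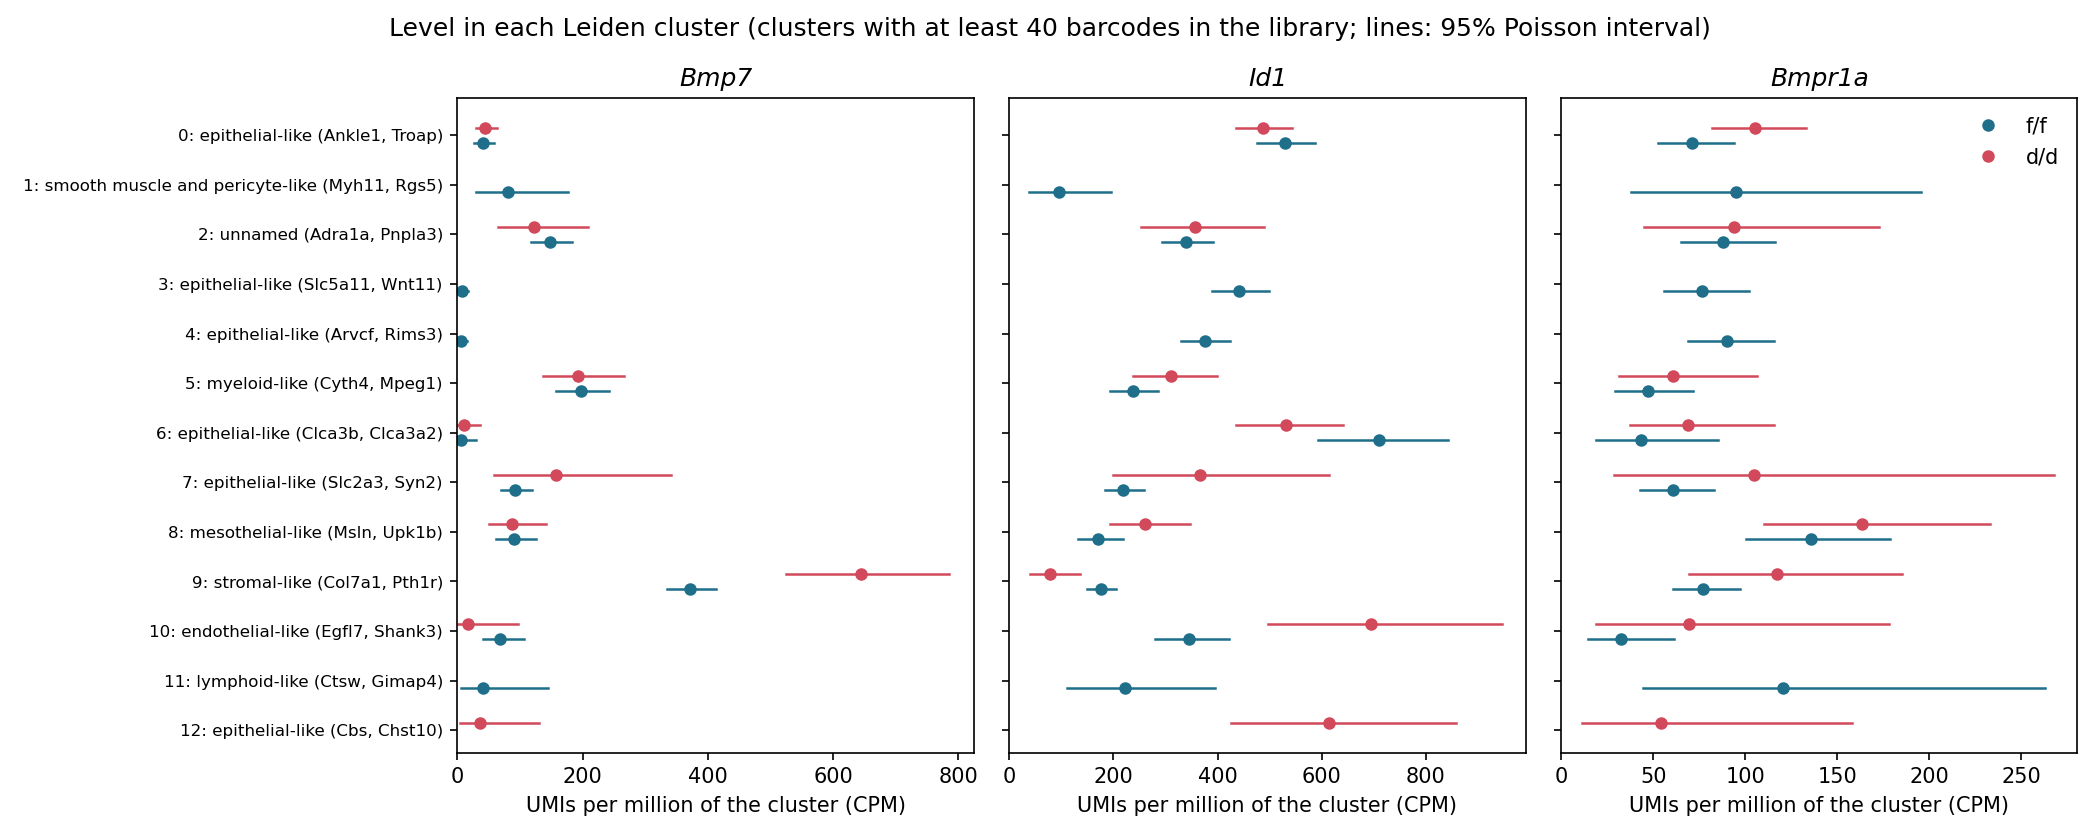
Level of Bmp7, Id1 and Bmpr1a in CPM of the cluster (horizontal axis) in each of the 13 Leiden clusters (vertical axis, with 2 leading genes each), for f/f (blue) and d/d (red), shown where the library had at least 40 barcodes, with 95% Poisson intervals as lines. Bmp7 peaked in the stromal-like cluster (372 and 645 CPM), where Id1 was at 175 and 78.2 CPM, while Id1 was at 346 and 695 CPM in the endothelial-like cluster.

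Beside the members, 76 other genes of the superfamily were followed by role. Of the 31 that had 20 UMIs in gated epithelium, 2 were past 2-fold higher and 1 lower in d/d, with a median log2 ratio of -0.23, beside 715 higher and 764 lower (15.2%) of all 9700 genes counted. Of the 41 in gated stroma, 3 were past 2-fold higher and 6 lower, with a median of -0.17, beside 459 higher and 729 lower (12.2%) of 9720. Of the 7 antagonists counted in gated stroma 5 had a ratio above 0, with a median of 0.13, and 1 passed 2-fold, Nog. The antagonist with the most UMIs, Nbl1, named after its values were seen, had 476 and 155 (0.58, from 0.31 to 0.85). Nog, which encodes the BMP antagonist noggin, had 122 and 8 UMIs, or 97.7 and 29.5 CPM, a ratio of -1.73 (-2.97 to -0.70). The stromal-like cluster gave 111 and 5 UMIs and -1.83 (-3.48 to -0.57), and the mesothelial-like cluster 14 and 0. Nog was thus lower in d/d under both ways of choosing stroma. In gated epithelium Chrd, which encodes the BMP antagonist chordin, had 32 and 3 UMIs, a ratio of -1.76 (-4.11 to -0.09), while its gated stromal levels of 25.6 and 25.8 CPM did not differ beyond counting error.

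Among the ligands on this list, Gdf7, a BMP-family growth factor, had 250 and 22 UMIs in gated stroma, or 200.2 and 81.1 CPM, a ratio of -1.30 (-2.0 to -0.67), and 231 and 16 in the stromal-like cluster, a ratio of -1.21 (-2.04 to -0.48). Tgfb2, a TGF-beta ligand, had 51 and 3 UMIs in gated stroma (-1.88, from -4.21 to -0.26) and 46 and 1 in the stromal-like cluster (-2.88, from -8.22 to -0.33). Without barcodes carrying Col6a4 or Adam12 its ratio was -0.47 (-3.60 to 1.55). Inha, the inhibin alpha subunit, had 21 and 2 UMIs in gated stroma (-1.19, from -4.33 to 0.84) and 14 and 2 in the stromal-like cluster (-0.17, from -3.35 to 2.0), where it was not past 2-fold. In gated epithelium Gdf15, a divergent member of the superfamily induced by cell stress, had 7 and 27 UMIs, or 4.34 and 52.6 CPM, a ratio of 3.60 (2.37 to 5.04). The epithelial-like clusters gave 9 and 48 Gdf15 UMIs and a ratio of 3.92 (2.88 to 5.14). Bmp5, a close relative of Bmp7, had 21 and 17 UMIs in gated epithelium, or 13.02 and 33.1 CPM (1.35, from 0.33 to 2.34). Without barcodes carrying Lrp2 or Slc5a11 the Bmp5 ratio was 0.27 (-1.27 to 1.85), from 8 and 9 UMIs, and over all deposited barcodes in the gate it was 0.55 (-0.36 to 1.43). The epithelial-like clusters gave 36 and 26 Bmp5 UMIs and a ratio of 1.04 (0.25 to 1.81).

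Of the receptors and transducers, Acvr1b, the activin type I receptor ALK4, had 32 and 1 UMIs in gated stroma (-2.80, from -8.14 to -0.22) and 26 and 1 in the stromal-like cluster (-2.06, from -7.42 to 0.55). Gated barcodes inside that cluster had 21 and 0 Acvr1b UMIs, which gives only an upper limit of -0.11. Smad2, which carries activin and TGF-beta signals, had 36 and 3 UMIs in gated stroma (-1.38, from -3.73 to 0.28) and 22 and 1 in the cluster (-1.82, from -7.19 to 0.81). Rgma, a BMP co-receptor, had 31 and 14 UMIs in gated stroma (1.06, from 0.03 to 2.01) and 20 and 7 in the cluster (1.13, from -0.36 to 2.43). The other Id genes differed among themselves in gated stroma. Id2 had 65 and 29 UMIs (1.04, from 0.35 to 1.69) and Id4 had 30 and 15 (1.2, from 0.20 to 2.14). Id3, under 2-fold and added after its values were seen, had 314 and 35 (-0.96, from -1.51 to -0.46). In the stromal-like cluster Id2 had 34 and 10 UMIs (0.88, from -0.31 to 1.93), Id4 had 16 and 2 (-0.36, from -3.52 to 1.73) and Id3 had 226 and 20 (-0.86, from -1.60 to -0.20), so neither Id2 nor Id4 was past 2-fold there. Id2 and Id4 were higher in gated epithelium, at 356 and 288 CPM and at 186 and 144 CPM, than in gated stroma, at 52.0 and 107 CPM and at 24.02 and 55.3 CPM. Id3 was also higher in gated epithelium, at 404 and 343 CPM, than in gated stroma, at 251 and 129 CPM, and it was lower in d/d stroma. The keratin level given above was higher in gated d/d stroma, and its part in the ratios of these 3 genes was not tested.

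**Figure D4:**
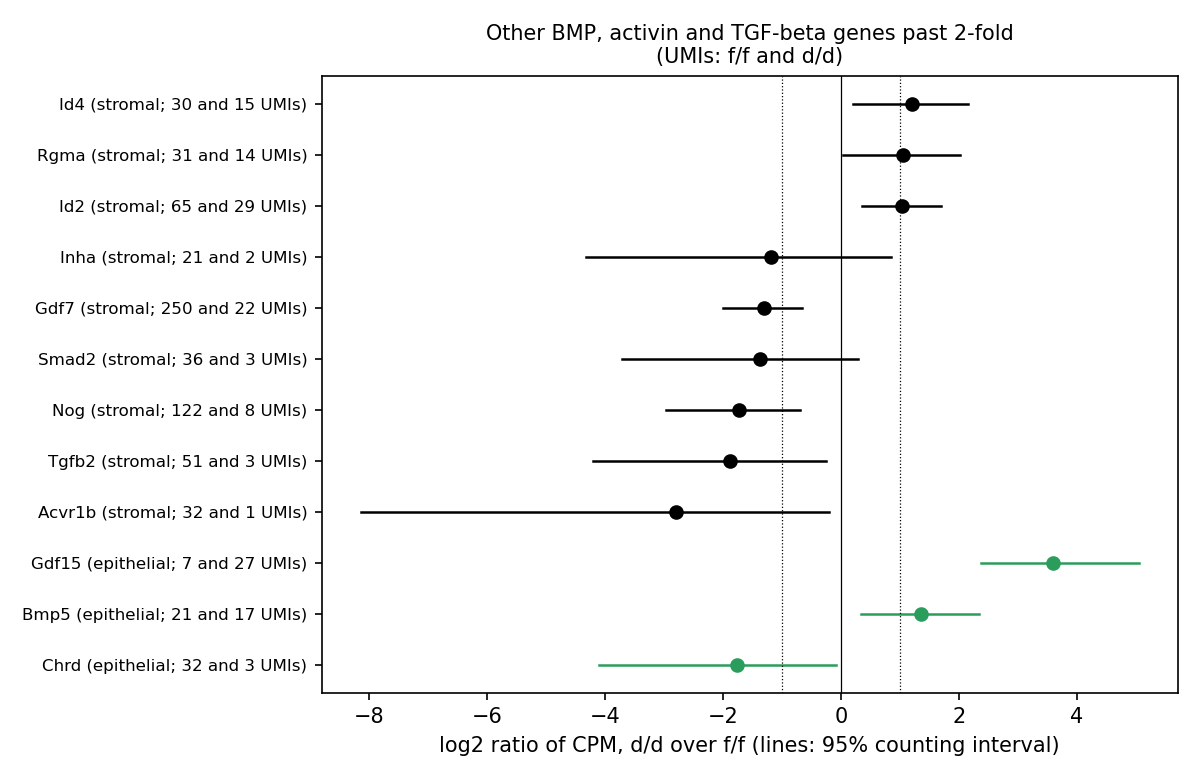
Log2 ratio of CPM, d/d over f/f (horizontal axis), of the 12 other superfamily genes past 2-fold (vertical axis, with the UMIs of both libraries), in gated stroma (black) and gated epithelium (green), with 95% counting intervals as lines and 2-fold as dotted lines. Nog (-1.73) and Gdf7 (-1.30) had the largest counts among those lower in d/d, and Gdf15 (3.60) lay farthest above 0.

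Genes most like a member over the 13 clusters were ranked by Pearson's r of log2(CPM + 10), as a description in which all points share the libraries and the clustering. Bmp7 was closest to Hoxd11 and Dkk3 (r = 0.95 for both), Id1 to Sox7 (0.96) and Map3k3 (0.94), and Smad6 to Ltf (0.88). Bmpr2 was closest to Commd4 (0.92) and Cisd1 (0.92), Bmpr1a to Alkbh5 (0.85) and Cdk5 (0.80), and Acvr1 to Dixdc1 (0.85) and Rpusd1 (0.85). The planned ranking over gated types had 4 profiles, on which 222 genes reached an r of at least 0.99 with Bmp7, and it named no gene in particular.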

How the data were processed

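The deposited values were counts: the authors' UMI counts per gene and barcode from 10x Flex probe libraries of fixed tissue, not normalised, and Cell Ranger 9.0.0 wrote them, per the file headers. The submitters' processing notes name both mm10 and GRCm39, the labels give differing kit names, and the probe-set version is not given in the sources used here. There were 5783 f/f and 2125 d/d barcodes, with 6819591 and 2866862 UMIs in total. Barcodes with at least 200 genes and at most 10% mitochondrial UMIs were used, which left out 280 and 295. No doublet caller was run; barcodes of mixed markers stayed ungated, and leaving out the 5% of barcodes with the most UMIs was an alternative.

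UMIs were summed per library and class and divided by the class total (CPM). Sums have exact Poisson, shares exact Clopper-Pearson and ratios exact conditional binomial intervals, all at 95%, for counting error only. A count of 0 was given a limit of 3 counts. A ratio limit made from it took the other count as exact and is not one of these intervals. Ratios were checked on simulated counts. Clusters used scanpy 1.11.5 and leidenalg 0.10.2 (2000 variable genes, 30 principal components, 15 neighbours, resolution 1) in Python 3.11.15 with scipy 1.17.1; the same genes formed the clusters, so levels across clusters are descriptions. Named were all 10 members, the other superfamily genes past 2-fold in gated epithelium or stroma, and the 2 genes most like each member, of which 1 is not reported here. The members, the lists and the sub-gates were chosen with earlier results of these data known.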

Additional observations from a re-analysis of the deposited data

Results flagged for a closer look

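Members also had UMIs in the barcodes left out of every comparison for their high mitochondrial share, 280 in f/f and 295 in d/d, which held 19.1% and 40.3% of the UMIs of their libraries. Counts there are given as f/f and d/d, each flagged because it exceeded the 3 counts taken as the limit of 0. Their median depths were 2111.5 and 1599 UMIs, against 809 and 764.5 in the used barcodes. CPM takes mitochondrial UMIs into the total, which lowers the values of other genes in barcodes with many of them. Id1 had 326 and 338 UMIs, or 250.4 and 293 CPM, below its CPM over the used barcodes in both libraries. Bmp7 had 57 and 49 UMIs, or 43.8 and 42.5 CPM. Bmpr1a had 58 and 60 UMIs, Bmpr2 36 and 34, and Acvr1 22 and 18. Smad6 had 19 and 24 UMIs, Fst 11 and 6, Bmp2 8 and 6, and Bmp4 4 and 6. The class of cell behind these barcodes was not analysed here.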

How the results depend on the processing

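No paired analysis was possible because each genotype had 1 library. In gated epithelium the count of members past 2-fold was 0, and it became 1 with a gate minimum of 3 marker UMIs (Bmpr2), with no gene minimum (Inhbb) and without barcodes carrying Lrp2 or Slc5a11 (Smad6). In gated stroma the count was 1 (Fst). It became 0 with a gate share of 0.9 or a gene minimum of 100 UMIs, 2 over all deposited barcodes (Bmp2, Fst) or without Col6a4 or Adam12 (Bmpr1a, Id1), and 3 with Leiden clusters, with gated barcodes inside the stromal-like cluster (Bmpr2, Fst, Id1 in both) or with no gene minimum (Bmp4, Inhbb, Fst). It stayed at 1 without keratin-positive barcodes, but the gene was then Bmpr2. Fst there had 30 and 0 UMIs and only a limit of -0.96, made with 3 counts in place of the 0. The gate share of 0.9 left Fst with 23 and 0 UMIs and a limit of -0.70, made in the same way. The gene minimum changes only which members are counted; for the others the cause was not tested. Of 125 alternative values of single members, 105 kept their direction and 115 lay inside the counting interval. Fst without Col6a4 or Adam12 had no d/d UMI and gave no direction. Of 126 values of the other named genes, 124 kept their direction. The exceptions were Id4 in the stromal-like cluster (-0.36) and Rgma without Col6a4 or Adam12 (-1.03). Median-of-ratios size factors shifted ratios by -0.03 in epithelium and -0.09 in stroma at the median gene. Depth limited Bmp2, Bmp4 and Inhbb throughout, and the d/d side of Fst.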

Other observations

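Barcodes that met no gate, 2450 in f/f and 928 in d/d, held 43.4% and 55.2% of all Id1 UMIs beside 45.6% and 51.9% of all UMIs, and Id1 there was at 311 and 431 CPM, a log2 ratio of 0.47 (0.29 to 0.65). The cluster without a name, led by Adra1a and Pnpla3 and carrying both epithelial and stromal gate markers (1951 and 3441 CPM in f/f), had 84 and 13 Bmp7 UMIs, or 148 and 122 CPM, a ratio of -0.28 (-1.24 to 0.58). Id1 in that cluster was at 339 and 357 CPM.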
